A study of Homo sapiens with 18 samples.

Results

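The comparison described here is the response of CWR22Rv1 cells to siRNA against Stat5a/b, measured on 3 arrays and set against 3 arrays of the same line given a scramble siRNA. These 6 arrays were taken by their labels from the 18 arrays of the series, and the readout was 19775 genes, each read from its brightest single-symbol probe set, judged by the mean of the 18 arrays. CWR22Rv1 is an established human prostate cancer line derived from a xenograft that relapsed after castration of its host, and it is 1 line, so the values describe that line. All groups were cultured in the same serum-containing medium, transfected with Lipofectamine and harvested after 48 h. The other arrays used for comparison were 3 CWR22Rv1 arrays with Stat3 siRNA and, from DU145, an established prostate cancer line from a brain metastasis, 3 with scramble and 3 with Stat5a/b siRNA. The siRNA pool was aimed at both Stat5a and Stat5b, so the 2 targets cannot be told apart, and the siRNA sequences were not used here. The triplicates were not pooled, but nothing in the labels says that they came from separate cultures, so the p-values rest on a spread between arrays that could be technical only. In a bulk sample, fewer cells of a kind and less RNA per cell cannot be told apart.

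STAT5A and STAT5B are closely related transcription factors that wait in the cytoplasm. Prolactin, growth hormone and several cytokines bind receptors that carry Janus kinases, above all JAK2, which phosphorylate STAT5, and the paired STAT5 proteins then enter the nucleus and bind DNA at a palindrome of the form TTCNNNGAA. Known targets include CISH and other SOCS family genes, which feed back on the receptors, and genes of survival and the cell cycle. In the prostate, prolactin acting through STAT5 is known for supporting the growth and survival of epithelial cells.

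The promoters of a few genes show what such a palindrome looks like and where it lies, and they were chosen because CISH is the textbook STAT5 target while EGR1, CDKN3 and DENND6A were called in the comparison below. Sequences are RefSeq's, on assembly GRCh38.p14, taken from the 250 bases before to 50 bases after each gene's start, and the capitals mark 1 match to TTCNNNGAA in each; both CISH windows hold a further match, left in lower case. The first CISH window is chr3:50611982-50612024 on the - strand, the second is chr3:50611870-50611928 on the - strand, and the CISH promoter held 4 matches in all. The EGR1 window is chr5:138465229-138465284 on the + strand, that of CDKN3 is chr14:54396822-54396880 on the + strand and that of DENND6A is chr3:57693284-57693327 on the - strand. Each window lies upstream of the start site, and only such windows were printed. ANXA1, HS6ST2 and PLSCR1, also called, each held 1 match too, and their windows are not shown.
CISH, first window: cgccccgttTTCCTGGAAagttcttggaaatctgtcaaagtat
CISH, second window: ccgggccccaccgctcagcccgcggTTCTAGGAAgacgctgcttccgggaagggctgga
EGR1: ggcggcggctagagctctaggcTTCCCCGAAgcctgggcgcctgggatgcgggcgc
CDKN3: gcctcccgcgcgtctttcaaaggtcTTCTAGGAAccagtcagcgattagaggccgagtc
DENND6A: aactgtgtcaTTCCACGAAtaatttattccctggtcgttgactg

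The motif reads the same on both strands and was searched on both. It was present in 6.95% of the 15382 genes with a RefSeq promoter, in 6.31% of the 491 genes called higher and in 7.72% of the 544 called lower. The interferon response motif, a pair of GAAA blocks 2 bases apart, was searched in the same windows on both strands and was present in 2.95%, 3.46% and 3.49% of them. Both motifs were present in 54 promoters, where 9 pairs of matches overlapped. Of 114 named genes that were looked up, 94 had a promoter in the table and 7 of those held TTCNNNGAA. A match is a description of the letters in this window, and sites outside it were not searched.

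The 6 arrays were alike in their overall values. Over genes, Pearson's r was 0.998 to 0.9982 among scramble arrays, 0.9975 to 0.9978 among Stat5a/b siRNA arrays and 0.9959 to 0.9966 between the groups, and no 2 arrays were identical. The median SD of a gene was 0.072 with scramble and 0.082 with Stat5a/b siRNA on the log2 scale. The array's GAPDH control probe sets read lower on the Stat5a/b siRNA arrays: the 3' set read 13.72 to 13.74 with scramble and 13.54 to 13.58 with Stat5a/b siRNA, and the 5' set 13.64 to 13.66 and 13.41 to 13.43. The GAPDH 3' minus 5' difference, a sign of RNA integrity, was 0.062 to 0.097 and 0.13 to 0.15, and the ranges did not overlap, while those of ACTB, 0.75 to 0.77 and 0.73 to 0.84, did. The part of RNA integrity in the results was not tested.

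None of the 9 measured markers of prostate luminal cells was called, and their summed log2 level was 82.79 to 82.97 with scramble and 82.93 to 83.21 with siRNA. KLK3, the prostate-specific antigen gene of this list, was at 6.70, 6.63 and 6.95 with scramble and at 6.80, 6.77 and 6.95 with Stat5a/b siRNA (log2 change 0.083 ± 0.14, adjusted p = 0.845), and the groups overlapped. No member of the neuroendocrine, basal, endothelial or leukocyte marker lists was called. The basal sum was 30.16 to 30.36 with scramble and 30.52 to 31.57 with siRNA, with 7 of 7 members above 0, and the neuroendocrine sum was 59.93 to 60.32 and 59.56 to 59.9, with 2 of 9 above 0; in both lists the ranges did not overlap. The endothelial sum, 30.86 to 31.61 and 31.41 to 32.36 with 5 of 7 above 0, and the leukocyte sum, 28.7 to 28.75 and 28.65 to 29.67 with 4 of 7 above 0, did overlap. The part of these markers in the results was not tested, and of all single genes 31.1% had groups that did not overlap. Of 8 fibroblast markers 2 were called higher (over all genes 3.16%), COL1A1 at 0.45 and ACTA2, smooth muscle actin, at 0.66. The summed level of the list was 43.78 to 44.1 with scramble and 44.77 to 45.64 with siRNA, with 5 of 8 members above 0. These 2 were named after their values were seen. Log2 array values have no zero, so no marker could be read as absent, and how far any gene lay above background is unknown.

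The targets came first. STAT5B was at 8.005, 7.87 and 7.95 with scramble and at 7.17, 6.90 and 7.04 with Stat5a/b siRNA, and the 2 groups did not overlap. The log2 change was -0.91 ± 0.091, adjusted p = 1.24e-05 (limma, Benjamini-Hochberg over all genes), leaving 53.4% of the control level. Of the 4 other STAT5B probe sets, 2 were also called, with changes of -0.93 and -0.74 (52.5% and 59.9% of control), and the other two were at 0.10 and 0.052 and were not called. STAT5A was at 6.10, 6.37 and 6.44 with scramble and at 5.56, 6.11 and 6.22 with Stat5a/b siRNA, which overlapped: the log2 change of -0.34 ± 0.13 had an adjusted p of 0.146 and did not pass the test. Without Stat5a/b siRNA replicate 1 the STAT5A change was -0.14, and without replicate 3 it was -0.47, so 1 array moved it. STAT3, the factor of the other siRNA, was at 7.40, 7.21 and 7.24 and 7.52, 7.42 and 7.31, a change of 0.13 ± 0.09 (adjusted p = 0.505). RNA levels say nothing of the protein that remained.

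**Figure D1:**
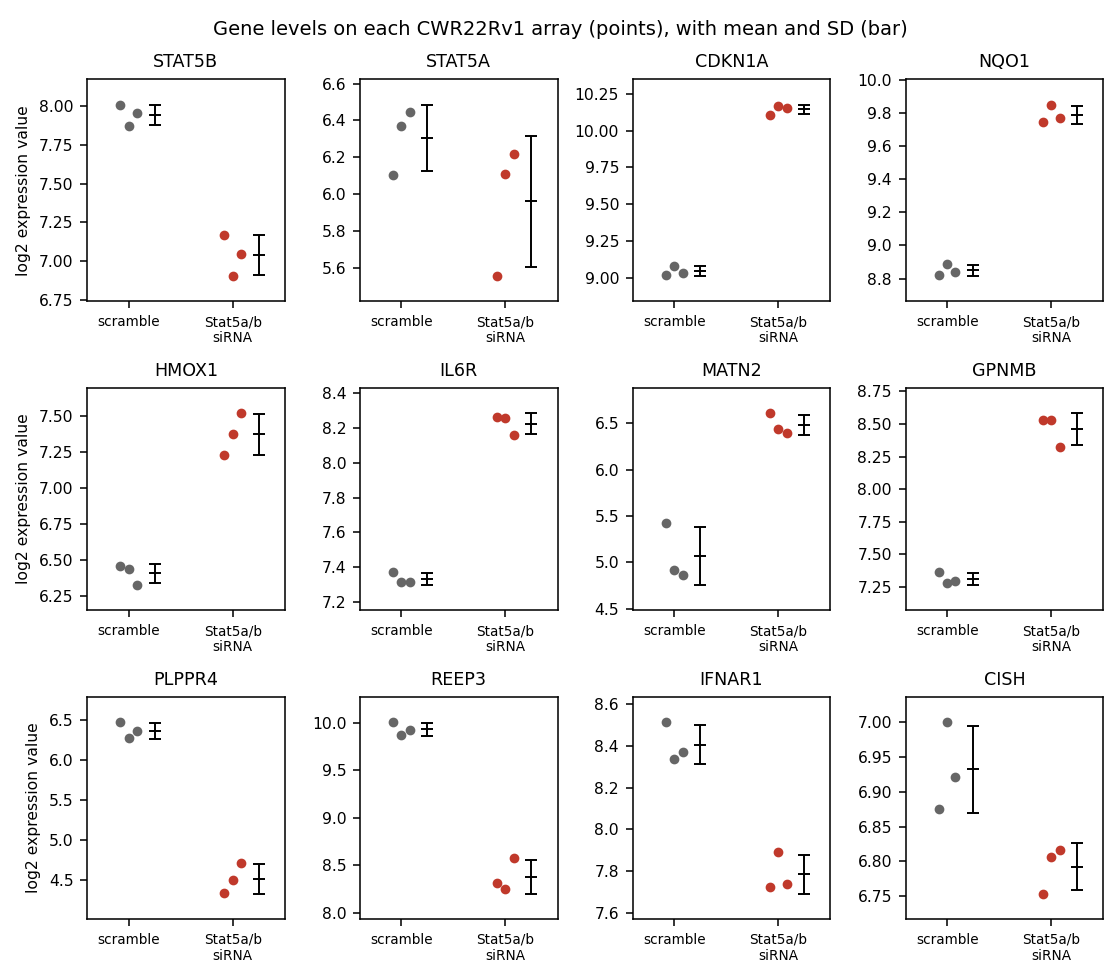
Log2 expression value of 12 genes on each of the 3 scramble and 3 Stat5a/b siRNA arrays of CWR22Rv1 (points), with the mean and the SD of the 3 arrays (bar); the axes differ between genes. STAT5B lay apart between the groups, STAT5A overlapped, and CDKN1A and NQO1 were higher with Stat5a/b siRNA on all 3 arrays.

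Across the line, 1277 of 19775 genes (6.46%) were called at an adjusted p under 0.05, 624 higher (3.16%) and 653 lower (3.3%). The changes were small: the quartiles of the size of the called changes were 0.286 and 0.492 on the log2 scale, the median was 0.365 (1.29-fold) and 17 genes (0.086%) changed at least 2-fold, 6 up (0.0303%) and 11 down (0.0556%). The Stat5a/b siRNA arrays lay entirely beyond the scramble arrays in 6150 genes (31.1% of all, 17.3% above and 13.8% below), so a lack of overlap alone was common, and all 1277 called genes had it. The median change over all genes was 0.024. The count of calls rests on each of the 6 arrays, since leaving out 1 of them gave 718 (without scramble replicate 1), 830 (2), 724 (3), 844 (without Stat5a/b siRNA replicate 1), 744 (2) and 834 (3). With the CWR22Rv1 arrays alone in the fit, 2372 genes were called.

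The genes that rose most were of several kinds. MATN2, which encodes the matrix adaptor matrilin-2, was at 5.42, 4.92 and 4.86 with scramble and at 6.60, 6.44 and 6.40 with Stat5a/b siRNA, a log2 change of 1.41 ± 0.15, adjusted p = 2.02e-05. GPNMB, a transmembrane glycoprotein, went from 7.36, 7.28 and 7.30 to 8.53, 8.53 and 8.32 (1.15 ± 0.11, adjusted p = 5.54e-06). LAMC1, the laminin gamma 1 chain, went from 9.56, 9.48 and 9.54 to 10.68, 10.62 and 10.63 (1.12 ± 0.062, adjusted p = 1.21e-07). In each of these genes the lowest siRNA array lay above the highest scramble array. CDKN1A, the p21 inhibitor of cyclin-dependent kinases, was at 9.02, 9.08 and 9.03 with scramble and at 10.11, 10.17 and 10.16 with siRNA (1.10 ± 0.091, adjusted p = 2.08e-06), and SLC7A2, a cationic amino acid transporter, changed by 1.08 ± 0.14, adjusted p = 0.000174. Among the next largest rises stood MSMB, the microseminoprotein of prostate secretion (1.05 ± 0.17, adjusted p = 0.00116), the phospholipid-binding ANXA1 (0.99 ± 0.11, adjusted p = 2.82e-05) and the histone gene H3C6 (0.97 ± 0.13, adjusted p = 0.000243). HMOX1 and NQO1, a haem oxygenase and a quinone reductase, changed by 0.97 ± 0.16, adjusted p = 0.00108 and 0.94 ± 0.059, adjusted p = 4.12e-07. The remaining rises of the 15 were 0.95 for DDIT4L, 0.93 for SIK1, 0.90 for CYP1A1, 0.89 for IL6R and 0.91 for CGA: an inhibitor of mTORC1 signalling, a salt-inducible kinase, a cytochrome P450, the receptor for interleukin-6 and the shared subunit of glycoprotein hormones. The CGA call (adjusted p = 0.0324) was lost whichever of the 6 arrays was left out (adjusted p 0.0671 to 0.121) and with the mean of its probe sets (adjusted p 0.0532).

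Among the falls, PLPPR4, a phospholipid phosphatase-related membrane protein, was at 6.47, 6.27 and 6.36 with scramble and at 4.33, 4.50 and 4.71 with Stat5a/b siRNA (-1.85 ± 0.17, adjusted p = 5.14e-06). HS6ST2, which sulfates heparan sulfate, went from 7.07, 6.67 and 6.81 to 5.21, 5.26 and 5.30 (-1.59 ± 0.20, adjusted p = 9.36e-05). REEP3, a protein that shapes the endoplasmic reticulum, went from 10.002, 9.87 and 9.92 to 8.31, 8.25 and 8.58 (-1.55 ± 0.12, adjusted p = 1.39e-06). In these genes the highest siRNA array stood below the lowest scramble array. AXL, a receptor tyrosine kinase, was at 5.11, 4.93 and 5.06 and at 3.27, 4.03 and 3.36 (-1.48 ± 0.22, adjusted p = 0.000461), a dim gene on this array with 1 siRNA array above the other two. The small GTPase RAB31 (-1.19 ± 0.13, adjusted p = 3.92e-05), the PAS-domain factor BMAL2 (-1.15 ± 0.13, adjusted p = 3.81e-05), the SNARE adaptor NAPB (-1.11 ± 0.077, adjusted p = 5.24e-07) and ENPP4 (-1.09 ± 0.077, adjusted p = 5.24e-07) followed. The rest of the 15 were -1.04 for NIBAN1, -1.02 for OGFRL1, -1.02 for VLDLR, -0.995 for TMEM65, -0.99 for RTKN2, -0.99 for LCOR and -0.97 for GNG10, among them the VLDL receptor, a nuclear receptor corepressor and a G protein gamma subunit. Of these 30 genes, 23 had other probe sets with a single symbol, and all 30 such sets had the sign of the gene's own: 13 of them were called and 0 were called in the other direction. The others did not pass the test, and several were near 0: the second set was at 0.0034 for CGA, 0.040 for SIK1, -0.055 for AXL, 0.10 for MATN2, 0.11 for ANXA1 and 0.19 for LAMC1. The size of those changes rests on the probe set used. In CWR22Rv1 the second AXL set was the brighter of its sets, at 5.72, 5.30 and 5.68 with scramble.

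**Figure D2:**
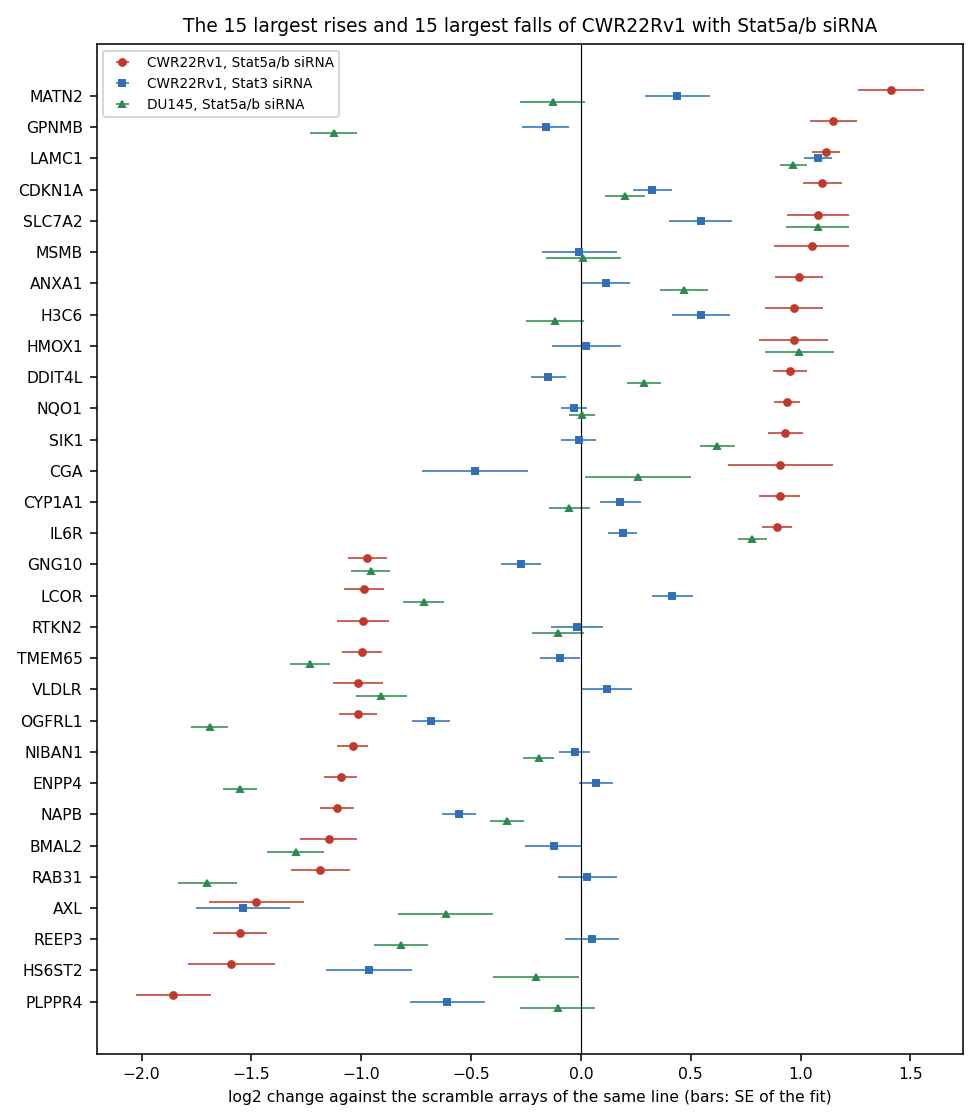
Log2 change against the scramble arrays of the same line (x axis, bars give the standard error of the fit) of the 15 largest rises and 15 largest falls of CWR22Rv1 with Stat5a/b siRNA, beside the change of the same genes with Stat3 siRNA in CWR22Rv1 and with Stat5a/b siRNA in DU145. The genes were chosen on the red points, and the Stat3 comparison shares their scramble arrays. GPNMB lay at 1.15 in CWR22Rv1 and at -1.13 in DU145, and LAMC1 lay near the same value in all comparisons.

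Of 3 other measured STAT genes 1 was called higher, STAT6, which interleukin-4 activates, at 0.33 ± 0.061 (adjusted p = 0.00308), and that count was kept whichever of the 6 arrays was left out. Of 8 Janus and SRC family kinases 1 was called higher, LYN at 0.23 ± 0.063 (adjusted p = 0.0408), and the count was 0 when any 1 of the arrays other than Stat5a/b siRNA replicate 3 was left out, with the CWR22Rv1 arrays or the 6 arrays alone in the fit, and with the mean of a gene's probe sets. STAT6 and LYN were named after their values were seen. The lists here and below were chosen with earlier results of these data known, so their counts are a description. Of 25 measured receptors for prolactin, growth hormone and cytokines, 1 was called higher and 2 lower (over all genes 3.16% were called higher and 3.3% lower), with a median of 0.081. IL6R, the interleukin-6 receptor, was at 7.37, 7.32 and 7.31 with scramble and at 8.26, 8.26 and 8.16 with siRNA (0.89 ± 0.068, adjusted p = 8.79e-07). IFNAR1, a subunit of the type I interferon receptor, was at 8.51, 8.34 and 8.37 and at 7.72, 7.89 and 7.74 (-0.62 ± 0.078, adjusted p = 0.000103), so IL6R rose and IFNAR1 fell with no overlap of the arrays. IL13RA1 was lower, at -0.26 ± 0.071, adjusted p = 0.0348. PRLR, GHR and JAK2, which receive prolactin and growth hormone and relay them to STAT5, had log2 changes of 0.049 ± 0.081, 0.15 ± 0.15 and -0.0056 ± 0.12 and were not called. IL13RA1 lost its call without scramble replicate 1 or 3 or Stat5a/b siRNA replicate 1 or 2 or 3 (adjusted p 0.059 to 0.149). The IL13RA1 call also ended after quantile normalisation (adjusted p 0.0536) and cyclic loess (adjusted p 0.0557). The 3 other IL13RA1 probe sets had the same sign, and 2 of them were called, at -0.73 and -0.48 (adjusted p = 0.00132 and 0.00357 over all probe sets).

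None of the 18 measured brakes on the pathway was called, of which 9 were above 0 (over all genes 3.16% were called higher and 3.3% lower). CISH, at 6.88, 6.999 and 6.92 with scramble and at 6.75, 6.81 and 6.82 with siRNA, had its 3 siRNA arrays below its 3 scramble arrays, and its change of -0.14 ± 0.06 had an adjusted p of 0.231. SOCS2 and SOCS3 were at -0.056 ± 0.15 (adjusted p = 0.912) and 0.21 ± 0.12 (adjusted p = 0.409). Of the 22 textbook targets 1 was called lower (4.55%) and 0 higher, close to those shares. Above 0 lay 13 of them, and the median was 0.016 against 0.024 for all genes. That gene, the cyclin CCND3, was lower, at -0.28 ± 0.071, adjusted p = 0.0275, and its call was lost whichever of the 6 arrays was left out (adjusted p 0.0618 to 0.119). Log2 changes were 0.11 ± 0.099 for BCL2L1, which encodes Bcl-xL, 0.0037 ± 0.10 for BCL2, -0.022 ± 0.079 for MCL1, -0.14 ± 0.061 for the cyclin CCND1, 0.14 ± 0.15 for MYC and -0.03 ± 0.073 for the kinase PIM1, none of them called. With the mean of a gene's probe sets CCND1 was called lower (-0.24, adjusted p 0.0395) and the CCND3 call ended (adjusted p 0.509). A change that did not pass the test is not shown to be absent.

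Of 40 measured genes of DNA replication and the G1/S transition, 8 fell and 0 rose (background 3.3% called lower), 35 lay below 0 and the median was -0.12 against 0.024 for all genes. CHAF1B, a chromatin assembly factor, was at 8.15, 8.10 and 8.07 with scramble and at 7.61, 7.72 and 7.75 with siRNA (-0.41 ± 0.064, adjusted p = 0.000747), and TYMS, thymidylate synthase, was at 11.66, 11.68 and 11.71 and at 11.44, 11.45 and 11.42 (-0.25 ± 0.048, adjusted p = 0.00435). MCM6 of the replicative helicase (-0.22 ± 0.048, adjusted p = 0.00881) and the primase-linked subunit POLA2 (-0.33 ± 0.072, adjusted p = 0.0101) were also lower. Mean list values per array, set against the scramble mean, were 0.014, -0.005 and -0.009 with scramble and -0.11, -0.11 and -0.14 with Stat5a/b siRNA, so the 3 siRNA arrays lay together. The count of 8 fell to 3 without scramble replicate 1, 4 without scramble replicate 3, 5 without Stat5a/b siRNA replicate 1 and 4 without Stat5a/b siRNA replicate 3. POLA2 lost its call without scramble replicate 1 or Stat5a/b siRNA replicate 2 (adjusted p 0.0562 to 0.0581). With the mean of a gene's probe sets the calls ended for TYMS (adjusted p 0.0559), MCM6 (adjusted p 0.0911) and POLA2 (adjusted p 0.104).

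Of 34 genes of mitosis and G2/M, 3 fell and 0 rose (over all genes 3.16% were called higher and 3.3% lower), 26 lay below 0 and the median was -0.082. The checkpoint kinase BUB1B was at 10.53, 10.53 and 10.56 with scramble and at 10.18, 10.24 and 10.21 with siRNA (-0.33 ± 0.052, adjusted p = 0.000936), and BIRC5, survivin, and MKI67, the proliferation antigen Ki-67, changed by -0.28 ± 0.059, adjusted p = 0.00719 and -0.27 ± 0.061, adjusted p = 0.0131. Among 7 cyclin-dependent kinase inhibitors CDKN1A rose, as above, and 3 fell: CDKN2B, which inhibits CDK4 and CDK6 (-0.42 ± 0.073, adjusted p = 0.00192), CDKN2D (-0.50 ± 0.11, adjusted p = 0.014) and the phosphatase CDKN3 (-0.27 ± 0.065, adjusted p = 0.0172). CDK6 itself was at 8.31, 8.20 and 8.24 with scramble and at 9.08, 9.09 and 9.10 with siRNA (0.84 ± 0.14, adjusted p = 0.00168). MKI67 lost its call without scramble replicate 2 or Stat5a/b siRNA replicate 3 (adjusted p 0.0683 to 0.0772), and so did CDKN2D without scramble replicate 2 or 3 or Stat5a/b siRNA replicate 1 (adjusted p 0.0544 to 0.0644). CDKN3 lost its call without scramble replicate 2 or Stat5a/b siRNA replicate 1 or 2 (adjusted p 0.055 to 0.0961). With the mean of a gene's probe sets the calls ended for CDKN2B (adjusted p 0.649), CDKN2D (adjusted p 0.114) and CDK6 (adjusted p 0.0696). The inhibitor count of 3 lower became 1 without scramble replicate 2 and 1 without Stat5a/b siRNA replicate 1.

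Among 22 p53 targets, 5 rose and 0 fell (background 3.16% called higher), 17 lay above 0 and the median was 0.14. Beside CDKN1A these were the death receptor FAS, at 8.45, 8.35 and 8.38 with scramble and at 8.89, 8.82 and 8.80 with siRNA (0.44 ± 0.055, adjusted p = 9.24e-05), the stress protein SESN1 (0.38 ± 0.064, adjusted p = 0.00159), the cyclin CCNG1 (0.23 ± 0.054, adjusted p = 0.0192) and TIGAR, named to complete the list. The siRNA arrays of FAS and of SESN1 lay above all scramble arrays. PMAIP1, often counted with p53 targets, was not on this list and was called lower, at -0.61, as given below. The count of 5 became 3 without scramble replicate 1, 3 without scramble replicate 3 and 3 without Stat5a/b siRNA replicate 3. CCNG1 lost its call whichever of the 6 arrays was left out (adjusted p 0.0503 to 0.0876). Of 9 measured replication-dependent histone genes, 3 rose and 0 fell with a median of 0.34: H2AC6 was at 6.54, 6.55 and 6.49 with scramble and at 7.39, 7.34 and 7.35 with siRNA (0.83 ± 0.059, adjusted p = 5.24e-07), and H2BC12 and the linker histone gene H1-2 changed by 0.49 ± 0.063, adjusted p = 0.000129 and 0.34 ± 0.064, adjusted p = 0.00376. Most histone messages lack a poly(A) tail, and the histone genes of a cluster resemble each other, so their probe sets may mix genes.

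**Figure D3:**
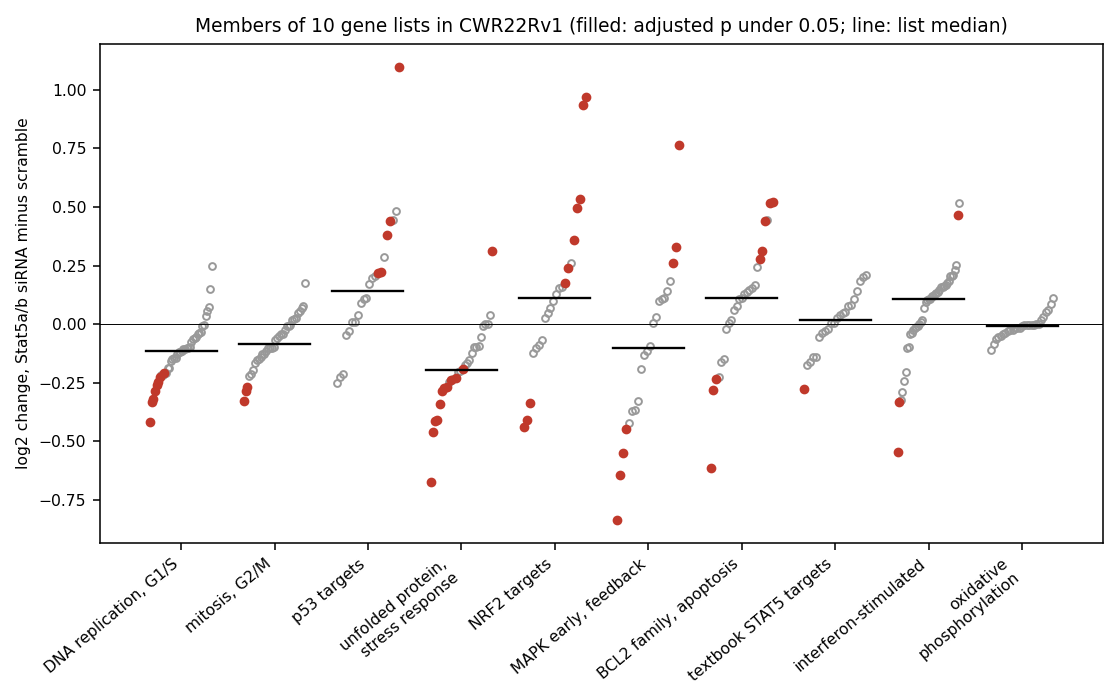
Log2 change with Stat5a/b siRNA against scramble in CWR22Rv1 of each measured member of 10 gene lists (points, sorted within a list), with members at an adjusted p under 0.05 filled and the list median as a line. The replication and stress response members lie mostly below 0, with medians of -0.12 and -0.20, while oxidative phosphorylation genes stay close to 0 with none called.

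Of 25 measured genes of the BCL2 family and apoptosis, 5 rose and 3 fell (over all genes 3.16% were called higher and 3.3% lower), with a median of 0.11. PMAIP1, which encodes the BH3-only protein Noxa, fell from 8.35, 8.31 and 8.34 to 7.78, 7.71 and 7.67 (-0.61 ± 0.13, adjusted p = 0.00777), while the death receptors FAS, given above, and TNFRSF10B (0.28 ± 0.067, adjusted p = 0.0189) rose. CFLAR, an inhibitor of caspase-8, was lower, at -0.23 ± 0.062, adjusted p = 0.0305. The other calls were CASP8, BIK and BOK, which rose, and BCL2L2, which fell, named to complete the list. Without 1 array the count of rises was 1 without scramble replicate 1, 2 without scramble replicate 2, 3 without scramble replicate 3, 1 without Stat5a/b siRNA replicate 1, 2 without Stat5a/b siRNA replicate 2 and 2 without Stat5a/b siRNA replicate 3, and the count of falls was 1 without scramble replicate 1, 1 without scramble replicate 2, 1 without scramble replicate 3, 1 without Stat5a/b siRNA replicate 1 and 1 without Stat5a/b siRNA replicate 2. TNFRSF10B lost its call without scramble replicate 1 or 2 or Stat5a/b siRNA replicate 1 or 2 (adjusted p 0.0537 to 0.0931), and so did CFLAR without scramble replicate 1 or 2 or 3 or Stat5a/b siRNA replicate 1 or 2 (adjusted p 0.0612 to 0.136). The CFLAR call also ended with the 6 arrays alone in the fit (adjusted p 0.062), with cyclic loess (adjusted p 0.0701) and with the mean of its probe sets (adjusted p 0.791). Of the 13 other CFLAR probe sets 7 had the same sign, 0 were called lower and 1, a dim one, was called higher at 0.60 (adjusted p = 0.0144 over all probe sets). The TNFRSF10B call ended with the mean of its probe sets (adjusted p 0.333).

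Of 28 measured genes of the unfolded protein and integrated stress response, 11 fell and 1 rose (background 3.3% and 3.16%), 24 lay below 0 and the median was -0.20 against 0.024 for all genes. DNAJB11, an endoplasmic reticulum co-chaperone, was at 10.53, 10.46 and 10.51 with scramble and at 10.03, 10.12 and 10.11 with siRNA (-0.41 ± 0.058, adjusted p = 0.000348). ASNS, asparagine synthetase, was at 11.82, 11.81 and 11.83 and at 11.36, 11.42 and 11.31 (-0.46 ± 0.075, adjusted p = 0.00126). CHAC1, which degrades glutathione, was at 6.41, 6.46 and 6.64 and at 5.81, 5.94 and 5.75 (-0.67 ± 0.10, adjusted p = 0.000836), and in these genes the arrays of the 2 groups did not overlap. The other falls were HSP90B1, SEL1L, SDF2L1, PDIA6, TRIB3, PSAT1, PHGDH and SLC7A11, named to complete the list. ATF6, a sensor of the same response, rose by 0.31 ± 0.055, adjusted p = 0.00225. Mean list values per array were 0.003, -0.014 and 0.011 with scramble and -0.19, -0.18 and -0.20 with siRNA. The count of 11 became 4 without scramble replicate 1, 5 without scramble replicate 2, 4 without scramble replicate 3, 6 without Stat5a/b siRNA replicate 1, 6 without Stat5a/b siRNA replicate 2 and 3 without Stat5a/b siRNA replicate 3. The ATF6 call ended with the mean of its probe sets (adjusted p 0.0778).

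Of 14 amino acid transporters 2 were called higher and 2 lower (over all genes 3.16% were called higher and 3.3% lower). SLC7A2, given above, rose, and SLC7A11, the cystine transporter, went from 10.53, 10.58 and 10.50 to 10.30, 10.03 and 10.05 (-0.41 ± 0.10, adjusted p = 0.0234), while SLC1A4, a neutral amino acid transporter, changed by -0.35 ± 0.07, adjusted p = 0.00512 and SLC38A9, a lysosomal arginine sensor, by 0.26 ± 0.067, adjusted p = 0.0262. SLC7A11 lost its call without scramble replicate 1 or 2 or 3 or Stat5a/b siRNA replicate 2 or 3 (adjusted p 0.0618 to 0.114), and so did SLC38A9 without scramble replicate 2 or 3 or Stat5a/b siRNA replicate 1 or 2 or 3 (adjusted p 0.0559 to 0.122). Of 22 NRF2 targets, the antioxidant genes, 7 rose and 3 fell (3.16% and 3.3% over all genes), with a median of 0.11. NQO1 was at 8.82, 8.89 and 8.84 with scramble and at 9.74, 9.85 and 9.77 with siRNA, and HMOX1 was at 6.45, 6.43 and 6.33 and at 7.23, 7.37 and 7.52; both stood among the largest rises above. FTL, the ferritin light chain, rose by 0.53 ± 0.048, adjusted p = 4.56e-06, whereas TXNRD1, thioredoxin reductase, fell by 0.44 on the log2 scale (adjusted p = 7.78e-05). With the mean of its 2 probe sets TXNRD1 was at -0.21 (adjusted p 0.0628), and its other, dim set was at 0.015. The rises of AKR1C1 and AKR1C2 came from probe sets that can share targets, as can FTL's. The 7 rises became 4 without Stat5a/b siRNA replicate 1. Of 8 alpha-arrestins and MondoA partners, 3 rose and 0 fell, ARRDC4 by 0.57 ± 0.12, adjusted p = 0.00815, MLX by 0.26 ± 0.059, adjusted p = 0.0147 and TXNIP, an inhibitor of thioredoxin, by 0.36 ± 0.096, adjusted p = 0.0301. The count of 3 became 1 without scramble replicate 1, 1 without scramble replicate 3, 1 without Stat5a/b siRNA replicate 1 and 1 without Stat5a/b siRNA replicate 2. MLX lost its call without scramble replicate 1 or 3 or Stat5a/b siRNA replicate 1 or 2 (adjusted p 0.0532 to 0.0668), and so did TXNIP whichever of the 6 arrays was left out (adjusted p 0.0705 to 0.109). With the mean of the probe sets the calls of TXNIP (adjusted p 0.0831) and SLC38A9 (adjusted p 0.346) ended, that of SLC38A9 also with the 6 arrays alone in the fit (adjusted p 0.0519). A replicate block in the limma fit ended the calls of TXNIP (adjusted p 0.0647) and SLC7A11 (adjusted p 0.0563).

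**Figure D4:**
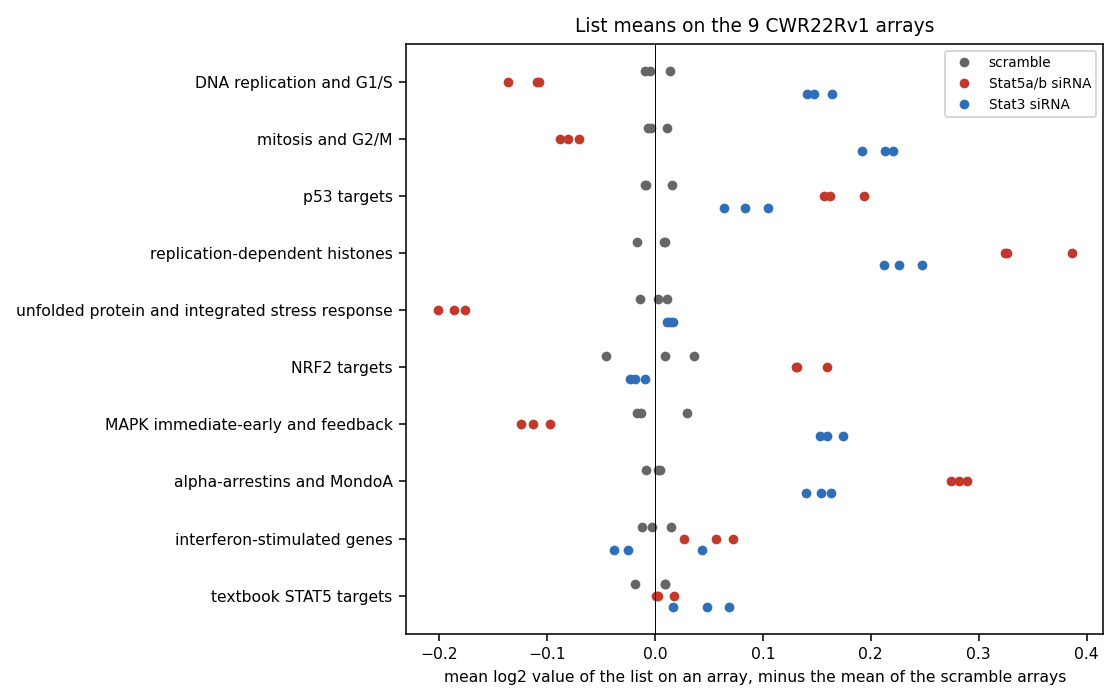
Mean log2 value of 10 gene lists on each of the 9 CWR22Rv1 arrays, as a difference from the mean of the 3 scramble arrays, coloured by siRNA. The Stat5a/b siRNA arrays of the stress response lie at -0.19, -0.18 and -0.20, below the scramble arrays, and the replication and mitosis means lie below scramble with Stat5a/b siRNA and above it with Stat3 siRNA.

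Of 22 immediate-early and feedback genes of MAPK signalling, 3 rose and 4 fell (over all genes 3.16% were called higher and 3.3% lower), with a median of -0.10. EGR1, an early growth response factor, was at 7.52, 7.42 and 7.35 with scramble and at 6.39, 6.66 and 6.73 with siRNA (-0.84 ± 0.20, adjusted p = 0.017), while the phosphatase DUSP1, which switches off MAPKs, was at 9.22, 9.17 and 9.25 and at 10.001, 10.02 and 9.91 (0.76 ± 0.17, adjusted p = 0.0131). ETV4 and ETV5, factors induced by ERK signalling, fell by 0.64 and 0.55 on the log2 scale (adjusted p = 0.0062 and 0.000792). The 3 rises became 1 without scramble replicate 1, 1 without scramble replicate 2, 1 without scramble replicate 3, 1 without Stat5a/b siRNA replicate 1 and 0 without Stat5a/b siRNA replicate 2, and the 4 falls became 2 without scramble replicate 1, 2 without scramble replicate 2 and 2 without Stat5a/b siRNA replicate 1. DUSP1 lost its call without Stat5a/b siRNA replicate 2 (adjusted p 0.0535), and so did EGR1 without scramble replicate 1 or 2 or Stat5a/b siRNA replicate 1 (adjusted p 0.0515 to 0.08). Of 23 TGF-beta pathway genes the receptor TGFBR1 (-0.64 ± 0.11, adjusted p = 0.00116) and the SMAD corepressor SKIL (-0.63 ± 0.10, adjusted p = 0.000915) fell and LTBP1 rose by 0.31 ± 0.077, adjusted p = 0.0208. LTBP1 lost its call without scramble replicate 2 or 3 or Stat5a/b siRNA replicate 2 or 3 (adjusted p 0.0538 to 0.116). The mean of a gene's probe sets ended the LTBP1 call (adjusted p 0.422) as did the 6 arrays alone in the fit (adjusted p 0.0928), and it ended the calls of EGR1 (adjusted p 0.239), ETV5 (adjusted p 0.0887) and SKIL (adjusted p 0.606).

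Among 29 genes of WNT signalling 1 rose (3.45%) and 3 fell (10.3%), against 3.16% called higher and 3.3% called lower over all genes. The receptor FZD7 went from 5.83, 5.85 and 5.69 to 6.42, 6.62 and 6.46 (0.71 ± 0.088, adjusted p = 8.96e-05), whereas the transcription factor TCF7L2 (-0.52 ± 0.095, adjusted p = 0.00281), the receptor FZD5 (-0.34 ± 0.078, adjusted p = 0.0149) and the secreted antagonist WIF1 (-0.48 ± 0.13, adjusted p = 0.0321) were lower. The falls became 1 without scramble replicate 1, 1 without scramble replicate 3, 1 without Stat5a/b siRNA replicate 2 and 1 without Stat5a/b siRNA replicate 3. FZD5 lost its call without scramble replicate 1 or 3 or Stat5a/b siRNA replicate 2 or 3 (adjusted p 0.0522 to 0.0748), and so did WIF1 without scramble replicate 1 or 2 or 3 or Stat5a/b siRNA replicate 2 or 3 (adjusted p 0.0884 to 0.169). Of 12 solute and ion transporters of prostate epithelium, 2 rose and 2 fell (over all genes 3.16% were called higher and 3.3% lower). The zinc importer SLC39A1 was at 8.60, 8.55 and 8.45 with scramble and at 7.87, 7.92 and 7.68 with siRNA (-0.71 ± 0.075, adjusted p = 2e-05), and the sodium pump subunit ATP1B1 was lower, at -0.37 ± 0.06, adjusted p = 0.000943. The bicarbonate cotransporter SLC4A4 and the zinc exporter SLC30A4 were higher by 0.51 ± 0.087, adjusted p = 0.00159 and 0.44 ± 0.089, adjusted p = 0.00656. Using the mean of the probe sets ended the calls of FZD5 (adjusted p 0.879), ATP1B1 (adjusted p 0.0636) and SLC4A4 (adjusted p 0.0838).

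Of 25 proteases of invasion and their inhibitors 2 were called higher and 1 lower (3.16% and 3.3% over all genes): the sheddase ADAM17 (0.36 ± 0.068, adjusted p = 0.0038) and the lysosomal protease CTSD (0.22 ± 0.064, adjusted p = 0.0491) were higher and heparanase, HPSE (-0.32 ± 0.093, adjusted p = 0.0479), was lower. The other HPSE probe set was called at -0.74 (adjusted p = 0.000401 over all probe sets). HPSE, by the probe set used, lost its call whichever of the 6 arrays was left out (adjusted p 0.0733 to 0.19), and so did CTSD whichever of the 6 arrays was left out (adjusted p 0.0861 to 0.185). The HPSE call also ended after quantile normalisation (adjusted p 0.0691) and cyclic loess (adjusted p 0.0515), the CTSD call with trend and robust settings of eBayes (adjusted p 0.062) and the ADAM17 call with the mean of its probe sets (adjusted p 0.118). Of 21 hypoxia-inducible genes 1 was called higher and 3 lower (over all genes 3.16% were called higher and 3.3% lower): the oxidase ERO1A, by the probe set used, was at 8.67, 8.60 and 8.57 with scramble and at 9.26, 9.42 and 9.44 with siRNA (0.76 ± 0.063, adjusted p = 2.2e-06), and the mitophagy receptor BNIP3L (-0.43 ± 0.077, adjusted p = 0.00249), the collagen hydroxylase P4HA1 (-0.36 ± 0.075, adjusted p = 0.00701) and the carbonic anhydrase CA12 (-0.39 ± 0.095, adjusted p = 0.0206) were lower. CA12 lost its call without scramble replicate 1 or 2 or Stat5a/b siRNA replicate 2 or 3 (adjusted p 0.052 to 0.0967). The probe sets of ERO1A disagreed, since its 2 others were at -0.29 (adjusted p = 0.0213 over all probe sets, called lower) and -0.11, so no direction of the gene can be read. The mean of a gene's probe sets ended the calls of ERO1A (adjusted p 0.276) and P4HA1 (adjusted p 0.248).

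Luminal and epithelial genes rose in 3 of 23 cases and fell in 1 (3.16% and 3.3% over all genes). CLDN3, a tight junction protein, was at 9.75, 9.87 and 9.75 with scramble and at 10.42, 10.50 and 10.41 with siRNA (0.66 ± 0.10, adjusted p = 0.000729), the splicing factor ESRP1 changed by 0.57 ± 0.082, adjusted p = 0.000369 and the surface protein CD24 by 0.60 ± 0.09, adjusted p = 0.000641. OCLN, occludin, was lower, at -0.23 ± 0.063, adjusted p = 0.0348. OCLN lost its call without scramble replicate 1 or 3 or Stat5a/b siRNA replicate 2 or 3 (adjusted p 0.0944 to 0.172). The OCLN call also ended with the 6 arrays alone in the fit (adjusted p 0.0593). Among 41 interferon-stimulated genes the counts were near the shares over all genes (3.16% higher and 3.3% lower): 1 was called higher, SP110 at 0.47 ± 0.11, adjusted p = 0.0212, and 2 lower, IFIT5 at -0.55 ± 0.087, adjusted p = 0.000982 and PLSCR1 at -0.33 ± 0.084, adjusted p = 0.0265, with a median of 0.11. SP110 lost its call without scramble replicate 2 or 3 or Stat5a/b siRNA replicate 1 or 2 or 3 (adjusted p 0.0533 to 0.0927), and so did PLSCR1 whichever of the 6 arrays was left out (adjusted p 0.0568 to 0.127). The mean of a gene's probe sets ended the calls of IFIT5 (adjusted p 0.268), SP110 (adjusted p 0.0802) and PLSCR1 (adjusted p 0.204), and cyclic loess ended that of PLSCR1 (adjusted p 0.053). No gene was called among 27 of oxidative phosphorylation, 22 cytosolic ribosomal proteins, 25 of the proteasome, 20 of glycolysis, 15 heat shock proteins, 23 NF-kB targets and 12 sensors of double-stranded RNA. In these 7 lists the count of genes with an unadjusted p under 0.05 was 0, 1, 1, 2, 3, 1 and 3, in that order (limma); with the CWR22Rv1 arrays alone in the fit, 2 heat shock proteins were called higher and 1 lower, 2 glycolysis genes each way and 1 sensor of double-stranded RNA lower.

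To ask which genes differed between the siRNAs against the different STATs, the Stat5a/b siRNA arrays were compared directly with the 3 Stat3 siRNA arrays of the same line. Here 2126 genes (10.8%) differed, 930 higher (4.7%) and 1196 lower (6.05%) with Stat5a/b siRNA; the split depended on scaling, since quantile normalisation gave 1217 genes higher and 965 lower, and cyclic loess gave 1185 and 985. With the CWR22Rv1 arrays alone in the fit the count was 3775. Without Stat3 siRNA replicate 1 it was 1388 and without replicate 3 it was 1416. Of the 1277 genes called against scramble, 754 (59.0%) also differed from Stat3 siRNA in the same direction; both comparisons share the Stat5a/b siRNA arrays. Genes of replication were lower in 24 of 40 cases and higher in 0, and genes of mitosis in 25 of 34 and 0, with medians of -0.28 and -0.26 against 0.030 for all genes. With 1 array left out the 24 ranged from 20 to 23, and the 25 from 20 to 23. Stat3 siRNA itself called 944 genes against scramble (4.77%; 2.75% higher and 2.02% lower). Against scramble, the medians with Stat3 siRNA were 0.15 and 0.23, with 9 and 18 members called higher and 0 lower, and with Stat5a/b siRNA -0.12 and -0.082; both comparisons share the scramble arrays. MAPK early genes were lower than with Stat3 siRNA in 7 of 22 cases and higher in 1, and genes of the unfolded protein and stress response in 11 of 28 and 1; with 1 array left out the 7 stayed at 7 and the 11 ranged from 8 to 9. NRF2 targets were higher in 8 of 22 and lower in 3.

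STAT3, the target of the other siRNA, was 1.27 ± 0.09 higher with Stat5a/b siRNA (adjusted p = 2.32e-07), with a change against scramble of -1.13 for Stat3 siRNA. STAT5B was lower than with Stat3 siRNA, at -0.79 ± 0.091 (adjusted p = 3.34e-05), and STAT5A was at -0.22 ± 0.13 (adjusted p = 0.319). LPL, lipoprotein lipase, differed by 1.45 ± 0.23, adjusted p = 0.00063, and its change against scramble was -0.15 with Stat5a/b siRNA and -1.59 with Stat3 siRNA. GPNMB (1.31 ± 0.11), CGA (1.39 ± 0.24), CROT (1.21 ± 0.084), BEX4 (1.09 ± 0.091), DDIT4L (1.10 ± 0.078) and ABAT (1.09 ± 0.14) were also higher with Stat5a/b siRNA, all called. For CROT, which moves fatty acyl groups onto carnitine in peroxisomes, the changes against scramble were 0.54 and -0.67. Lower than with Stat3 siRNA were REEP3 (-1.60 ± 0.12), LCOR (-1.41 ± 0.092), EGR1 (-1.28 ± 0.20), FBXO8 (-1.25 ± 0.086), PLPPR4 (-1.25 ± 0.17), RAB31 (-1.21 ± 0.13), SFXN1 (-1.18 ± 0.083) and LOC105371703 (-1.19 ± 0.14). Of these, FBXO8, an F-box protein, and SFXN1, a mitochondrial serine carrier, were at -0.82 and -0.72 against scramble with Stat5a/b siRNA and at 0.43 and 0.47 with Stat3 siRNA. With the mean of its probe sets the SFXN1 call against scramble ended (-0.23, adjusted p 0.248). LAMC1 and AXL, by contrast, had changes of 1.12 and -1.48 with Stat5a/b siRNA and 1.08 and -1.54 with Stat3 siRNA. The direct difference was 0.036 ± 0.062, adjusted p = 0.781 and 0.061 ± 0.22, adjusted p = 0.906. These values rest on the probe sets used, and the other AXL set was at -0.055 with Stat5a/b siRNA.

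The same siRNA gave more calls in DU145, 4805 genes (24.3%, with 11.8% higher and 12.5% lower). STAT5B itself fell further in DU145 than in CWR22Rv1, by a log2 difference of 0.45 that was called. The part of this in the counts was not tested. In both lines 739 genes were called, of which 634 changed the same way, 270 higher and 364 lower (3.21% of all genes), and 105 the opposite way. The 634 were 49.6% of the CWR22Rv1 calls and 13.2% of the DU145 calls. Among the largest shared rises were PPP2R1B, a phosphatase 2A scaffold, at 8.98, 8.92 and 9.01 with scramble and 9.74, 9.67 and 9.80 with siRNA in CWR22Rv1 (0.77 ± 0.066) and a change of 1.33 ± 0.066 in DU145, and CDK6, SLC7A2, LAMC1 and HMOX1, with DU145 changes of 1.38 for CDK6, 1.08 for SLC7A2, 0.97 for LAMC1 and 0.99 for HMOX1. The shared rises also held IL6R at 0.78 in DU145 and ELMOD1 at 0.73 and 0.91. DENND6A, a Rab exchange factor, was at 10.90, 10.79 and 10.83 with scramble and 9.95, 9.89 and 9.94 with siRNA in CWR22Rv1 (-0.92 ± 0.069) and changed by -1.25 ± 0.069 in DU145. RAB31, BMAL2, ENPP4, OGFRL1, VLDLR, TMEM65 and GNG10 changed by -1.70, -1.30, -1.55, -1.69, -0.91, -1.23 and -0.96 in DU145, and the adaptor subunit AP1S3 by -0.92 and -1.16. In CWR22Rv1 AP1S3 lost its call without scramble replicate 1 or 2 or Stat5a/b siRNA replicate 3 (adjusted p 0.0557 to 0.0911).

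The response of the lines differed by the test of the difference itself in 2357 genes (11.9%), with the CWR22Rv1 effect higher in 1335 (6.75%) and lower in 1022 (5.17%). These genes covered 494 of the 1277 CWR22Rv1 calls (38.7%). The test uses the same 6 CWR22Rv1 arrays as those calls, so that share is not independent of them. GPNMB rose in CWR22Rv1 and fell in DU145, at 1.15 and -1.13. PLPPR4, by contrast, was at -1.85 in CWR22Rv1 and -0.11 in DU145 (difference -1.75 ± 0.24, adjusted p = 0.000303). KRT4, FGFBP1, CLIC3, PPL, ALDH1A3, CCN5 and CA11 had changes of 0.34, 0.58, 0.64, 0.50, 0.0081, -0.25 and -0.11 in CWR22Rv1 against -2.32, -1.72, -1.28, -1.42, -1.63, -1.85 and -1.71 in DU145. The interferon-induced genes CMPK2, MX1 and IFI27 were at 0.13, 0.14 and 0.17 and 2.47, 1.89 and 1.94, and TXNIP at 0.36 and 2.24. TMED6, AFAP1 and LAMP3 were at -0.74, 0.14 and -0.55 and 1.22, 2.08 and 1.23. AFAP1 was at 2.13, 1.97 and 2.04 with scramble in CWR22Rv1, where the smallest value of the data was 1.54. ALDH1A3 was at 3.68, 4.06 and 4.05 there, against a mean of 7.17 over all 18 arrays. Both were dim in this line, so their small changes there say little of a response. Whether this difference lies in the lines or in the separate transfections cannot be told apart. The FGFBP1 call against scramble in CWR22Rv1 was lost whichever of the 6 arrays was left out (adjusted p 0.0563 to 0.212) and under 4 other settings (adjusted p 0.0508 to 0.0929).

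The difference between the lines (over all genes 5.17% lower and 6.75% higher) was called lower in CWR22Rv1 for 19 of 40 replication genes and higher for 0, and for 13 of 34 mitosis genes and 0; in DU145 the medians were 0.23 and 0.14, with 19 and 16 members called higher and 2 and 3 lower. With 1 array left out the 19 ranged from 16 to 19, and the 13 became 8 without DU145 scramble replicate 1, without any of the 3 CWR22Rv1 scramble arrays and without Stat5a/b siRNA replicate 1 or 2 of CWR22Rv1. For the stress response it was lower for 13 of 28 and higher for 2, with 14 members called higher in DU145 and 7 lower (over all genes, 11.8% and 12.5% in DU145): ASNS, CHAC1 and SLC7A11 were at -0.46, -0.67 and -0.41 in CWR22Rv1 and at 0.74, 0.79 and 0.74 in DU145. It was lower for 21 of 41 interferon-stimulated genes and higher for 1, and the DU145 median of that list was 0.69 with 29 members called higher. Conversely it was higher for 13 of 19 sterol genes and lower for 0, and for 13 of 23 luminal genes and 0, with DU145 medians of -0.49 and -0.34 and CWR22Rv1 medians of 0.087 and 0.11. Of the sterol genes 1 was called higher and 1 lower in CWR22Rv1, against 0 and 14 in DU145. PMAIP1, ETV4 and ETV5 were at -0.61, -0.64 and -0.55 in CWR22Rv1 and 0.60, 0.47 and 0.71 in DU145.

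**Figure D5:**
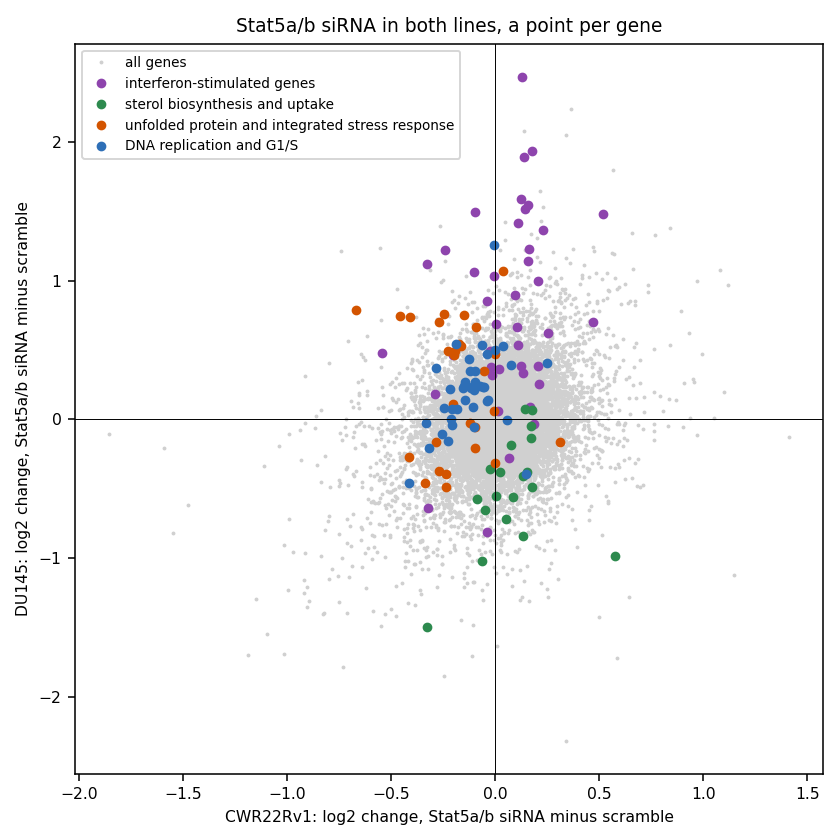
Log2 change with Stat5a/b siRNA against scramble of each gene in CWR22Rv1 (x axis) and DU145 (y axis), with the members of 4 lists coloured. Most interferon-stimulated genes lie near 0 in CWR22Rv1 and above 0 in DU145, most sterol genes lie below 0 in DU145, and Pearson's r across all 19775 genes was 0.239, a description over genes that are not independent.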

How the data were processed

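Gene expression in CWR22Rv1 and DU145 cells was measured on Affymetrix U133 Plus 2.0 arrays. The file deposited by the authors gives a log2 value for each probe set and array. The submitters' processing notes name RMA, which corrects background, normalises between arrays and summarises probes, and limma, without versions. Dim probe sets were kept, since detection calls were not used here. Of 54675 probe sets, 62 controls were left out, 41091 had 1 gene symbol in the platform annotation, 1801 several and 11721 none, and 41037 Entrez identifiers matched RefSeq. Symbols can be old, and probe sets with related targets may mix genes.

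The main model, in limma 3.58.1 (R 4.3.3), gave every one of the 6 groups its own mean and used the spread of all 18 arrays, with 12 residual and 3.82 prior degrees of freedom. Values given as a ± b are log2 changes with the standard error of that fit, whose quartiles over genes were 0.076 and 0.13 for 3 arrays against 3; the number of arrays limits the precision. P-values are two-sided and were adjusted by Benjamini-Hochberg across 19775 genes; called means an adjusted p under 0.05. The Stat3 comparison shares the scramble arrays. Percent of control is 2 raised to the log2 change. The fit was also run on simulated data to check the code, and no result given here rests on that run.

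Named genes were the targets, the 15 largest rises and falls with arrays that did not overlap, the called members with the lowest adjusted p (4 at most) of each list that had 3 or more, every called receptor, brake and textbook target, a set of STAT5-related genes whatever their result, and the 8 largest each way against Stat3 siRNA, between lines and in both lines. One gene named by this rule is not reported here. The members and lists were chosen with earlier results of these data known. Alternatives were other sample sets, normalisation, the probe-set mean, a filter on low values, the replicate block and leaving out arrays.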

Additional observations from a re-analysis of the deposited data

Results flagged for a closer look

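Named genes are listed here where the effect of Stat5a/b siRNA differed between CWR22Rv1 and DU145. The test was that of the difference itself (limma, Benjamini-Hochberg over all 19775 genes), which called 11.9% of all genes. The 8 largest differences each way were named by this test, and many others by their CWR22Rv1 change, which enters it. Their presence here thus follows from the choice, in whole or in part. The values are log2 differences, the CWR22Rv1 change minus the DU145 change, each on 3 arrays against 3 in either line.

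Among genes whose changes had opposite signs in the lines and were higher in CWR22Rv1, the difference was 1.54 for MATN2, 2.27 for GPNMB, 1.09 for H3C6, 0.96 for CYP1A1, 0.94 for CD24, 1.08 for CLDN3, 0.81 for CTSD, 0.53 for LTBP1 and 0.48 for ATF6. It was 0.85 for ERO1A (by the probe set used, since its sets disagreed in CWR22Rv1), 0.88 for H2AC6, 0.79 for DUSP1, 1.18 for FZD7, 1.35 for SLC4A4, 2.66 for KRT4, 2.30 for FGFBP1, 1.93 for CLIC3 and 1.92 for PPL. The difference came to 1.64 for ALDH1A3. Among genes with the same sign in both lines and the higher value in CWR22Rv1, it was 0.45 for STAT5B, 0.90 for CDKN1A, 1.04 for MSMB, 0.52 for ANXA1, 0.66 for DDIT4L, 0.93 for NQO1, 0.46 for ENPP4, 0.67 for OGFRL1 and 0.60 for IFNAR1. It was 0.38 for OCLN, 0.34 for ADAM17, 0.75 for HPSE, 0.30 for FTL, 0.53 for BNIP3L, 0.43 for P4HA1, 0.35 for H2BC12, 0.68 for SLC39A1 and 0.43 for CCND1. The difference came to 1.60 for CCN5, 1.59 for CA11 and 0.33 for DENND6A.

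Among genes with opposite signs and the lower value in CWR22Rv1, the difference was -0.33 for TYMS, -0.33 for BIRC5, -0.30 for CDKN3, -1.21 for PMAIP1, -1.02 for IFIT5, -1.45 for PLSCR1, -1.46 for CHAC1, -1.20 for ASNS and -1.26 for ETV5. It was -1.12 for ETV4, -0.80 for SLC1A4, -1.15 for SLC7A11, -0.31 for CISH, -0.51 for MCL1, -0.74 for LOC105371703, -1.96 for TMED6 and -1.78 for LAMP3. Among genes with the same sign in both lines and the lower value in CWR22Rv1, it was -1.75 for PLPPR4, -1.39 for HS6ST2, -0.73 for REEP3, -0.77 for NAPB, -0.85 for NIBAN1, -0.89 for RTKN2, -0.59 for SKIL, -1.23 for ARRDC4 and -1.88 for TXNIP. It was -2.34 for CMPK2, -1.94 for AFAP1, -1.76 for IFI27, -1.76 for MX1 and -0.56 for PPP2R1B.

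A sign was taken as it stood, also for a change that was not called in its own line. ALDH1A3 and AFAP1 were dim in CWR22Rv1, as given above. The cell line and the transfection it received cannot be told apart.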

How the results depend on the processing

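Fitting the CWR22Rv1 arrays alone called 2372 genes against scramble (1257 higher, 1115 lower) and 3775 against Stat3 siRNA (1825 and 1950), and fitting only the 6 arrays compared called 2933 against Stat3 siRNA (1397 and 1536); the pooled spread includes the more variable DU145 arrays, whose median gene SD was 0.112 with scramble. Counts against scramble under the other settings were 1695 with the 6 arrays alone, 1337 after quantile normalisation, 1313 after cyclic loess, 989 with the mean of a gene's probe sets, 1671 with genes of mean log2 of at least 6 and 1591 with eBayes trend and robust. Leaving out 1 array at a time gave 718 to 844 calls (329 to 400 higher, 369 to 444 lower) against scramble, 1388 to 1640 (600 to 710, 770 to 930) against Stat3 siRNA and 1677 to 2694 (949 to 1442, 717 to 1252) for the difference between lines. The log2 change ranged over -0.97 to -0.84 for STAT5B and -0.47 to -0.14 for STAT5A.

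Whether the replicate numbers pair the samples was not settled, and the main model left pairing out. Deviations of same-numbered scramble and Stat5a/b siRNA arrays of CWR22Rv1 correlated at 0.14, 0.091 and 0.053, weak values that were all positive. With the replicate block 1584 genes were called against scramble, 2587 against Stat3 siRNA and 2965 for the difference between lines, and STAT5A passed the test at -0.34 (adjusted p = 0.048).

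Of 135 named genes, 78 kept direction and side of the threshold under all alternatives run. Signs turned only for uncalled genes: by quantile normalisation to 0.0072 for JAK2 and -0.010 for ALDH1A3, by cyclic loess to -0.014 for BCL2 and 0.0011 for MCL1, and by the probe-set mean to -0.22 for PRLR. With 1 array left out the changes ranged over -0.13 to 0.037 for SOCS2, -0.064 to 0.031 for PIM1, -0.041 to 0.021 for JAK2, -0.12 to 0.11 for ALDH1A3 and -0.036 to 0.074 for BCL2. The cause was not tested. Medians of the brakes, oxidative phosphorylation and leukocyte lists, all close to 0, also changed sign with scaling. Having 3 arrays a group and unknown background limits what can be read from dim genes.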

Other observations

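Further gene groups held few calls, to be read against the 3.16% of all genes called higher and 3.3% called lower, and the genes below were named after their values were seen. In the RNA interference machinery 2 of 12 genes fell, DICER1, which cuts small RNA precursors, by 0.53 (adjusted p = 0.000702) and AGO1, an Argonaute protein, by 0.34 (adjusted p = 0.0272) on the log2 scale. In the circadian clock 2 of 15 rose, BMAL1 at 0.39 (adjusted p = 0.000982) and CIART at 0.49 (adjusted p = 0.02), while the related gene BMAL2 was among the largest falls. In the NOTCH pathway list HES1 and HES6 were higher, at 0.58 (adjusted p = 0.00108) and 0.27 (adjusted p = 0.0335), the only calls among its 20 genes. Of 17 class I antigen presentation genes HLA-C and TAP2 rose, at 0.33 (adjusted p = 0.0406) and 0.34 (adjusted p = 0.00954), and HLA probe sets can share targets. Of 26 androgen-responsive genes ELL2 and EAF2 fell, at -0.91 (adjusted p = 0.00207) and -0.28 (adjusted p = 0.0219), and 0 rose. Of 17 genes of fatty acid synthesis and lipid storage the elongase ELOVL7 fell, at -0.71 (adjusted p = 4.41e-06), and the lipid droplet coat PLIN2 rose, at 0.43 (adjusted p = 0.00197). Among 11 housekeeping genes YWHAZ, a 14-3-3 protein, fell, at -0.64 (adjusted p = 2.07e-05).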
